A study of Homo sapiens with 32 samples.

Results

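CDH1, CLDN7, MAL2, S100A14 and AP1M2, which are genes of epithelial cells, and VCAN, S100A4, PDLIM5 and MSRB3, which are better known from mesenchymal cells, were measured by SLAM-seq in 2 lines of HCT116, an established human colorectal carcinoma line. These 9 of 18829 named genes were selected on these same libraries because they differed between the lines, so every difference between lines given for them below is a description and carries no test. The epithelial genes gave more reads in the tagged line and the mesenchymal genes fewer. Per the labels, both lines carry OsTIR1, the plant auxin receptor, under doxycycline control (tetON), and the tagged line carries in addition the degron mAID on both copies of IGF2BP3, an RNA-binding protein. Doxycycline (200 ng/mL, 24 h) and the uridine analogue 4-thiouridine (s4U, 250 µM, 2 h) were present in every well, controls included. Auxin (IAA), which lets OsTIR1 mark mAID-tagged protein for degradation, was given at 500 µM for 9 h. Endoplasmic reticulum stress was induced with 5 µg/mL tunicamycin (TM), an inhibitor of N-linked glycosylation, for 5 h, and DMSO was the vehicle. Line, tunicamycin and auxin were crossed to give 8 groups of 4 libraries, each from 1 well of a 24-well plate. In the labels, replicates 1 and 2 of the tagged cells without tunicamycin or auxin repeat the name of the tag. Each p-value covers only variation from well to well, since no label says that wells came from separate cultures. The labels do not say whether the tagged line is a single clone, and an effect of the tag and a difference in the history of the lines cannot be told apart.

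Epithelial cells hold together through E-cadherin and tight junctions and sort proteins to separate apical and basolateral surfaces. Mesenchymal cells lack these junctions, make more extracellular matrix and carry contractile and motility proteins. In carcinoma lines the programmes shift along a range known as epithelial-mesenchymal transition, in which repressors such as ZEB1, SNAI1 and TWIST1 lower CDH1 and other epithelial genes, while GRHL2, OVOL1, ELF3 and the splicing factor ESRP1 favour the epithelial state. HCT116 cells are of epithelial origin.

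Each library held between 0.987 M (megareads) and 6.98 M reads of named genes. Of these, 8.88% to 13.5% were labelled, that is, they carried T-to-C conversions, such as s4U leaves after alkylation. Every well had s4U, so the background of such conversions without it was not measured. Levels are given as CPM, the count of a gene per megaread of named genes on TMM-scaled library sizes. The smallest library, replicate 1 of parental cells with tunicamycin and auxin, held 0.987 M reads, against 2.55 M in the next, and stood apart in the genes studied here: CDH1 had 2 reads there (2.54 CPM, against 30.8 to 36.5 in the other 3 wells of its group), S100A14 was at 43.2 CPM (119.8 to 136 in the others), MAL2 at 61 (125 to 148), and VCAN at 179 (90.1 to 107). Results that turn on this library are given with and without it. IGF2BP3 mRNA, whose group means lay between 145 and 183 CPM, cannot check a degron that acts on the protein. Of 11 markers of intestinal epithelium 10 had reads, CDX1 being at 0 in every library, but VIL1, CDH17, LGALS4, GPA33 and KRT20 had only 1, 2, 7, 12 and 108 reads in all 32 libraries together. The summed level, 1817 to 2345 CPM in parental and 2053 to 2613 CPM in tagged libraries, was mostly that of the general epithelial genes KRT18, KRT19, KRT8 and EPCAM, while the intestinal factor CDX2 was at 19.5 to 38.1 CPM. Of 8 fibroblast markers 4 were at 0 everywhere (COL1A2, COL3A1, LUM and THY1) and the sum, 21 to 59.7 CPM in parental and 18.4 to 38.2 CPM in tagged libraries, was mostly COL1A1 (20.2 to 59.7 and 18.4 to 38.2 CPM). Immune and endothelial markers summed to 3.3 to 14 and 2.7 to 8.72 CPM, with PTPRC and CD3E at 0. In bulk RNA, fewer cells of a type and less of an RNA per cell cannot be told apart.

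With neither tunicamycin nor auxin the 4 libraries of one line lay wholly above the 4 of the other for all 9 genes, where 6.11% of the 11186 genes tested did so in either direction. With auxin alone 8 of the 9 genes were so separated (9.52% of all genes), with tunicamycin alone 7 (12.1%) and with both 8 (6.31%). In every one of the 4 treatments MAL2, S100A14 and AP1M2 were higher in tagged cells without overlap, as were 0.107% of all genes, and VCAN, S100A4 and PDLIM5 were lower without overlap, as were 0.161%. CDH1 and MSRB3 were separated in 3 treatments and CLDN7 in 2. These counts restate how the genes were found. Averaged over the treatments, the median difference (log2, tagged against parental) was 0.83 for the 5 epithelial and -0.72 for the 4 mesenchymal genes, beside -0.01 for all genes tested.

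**Figure D1:**
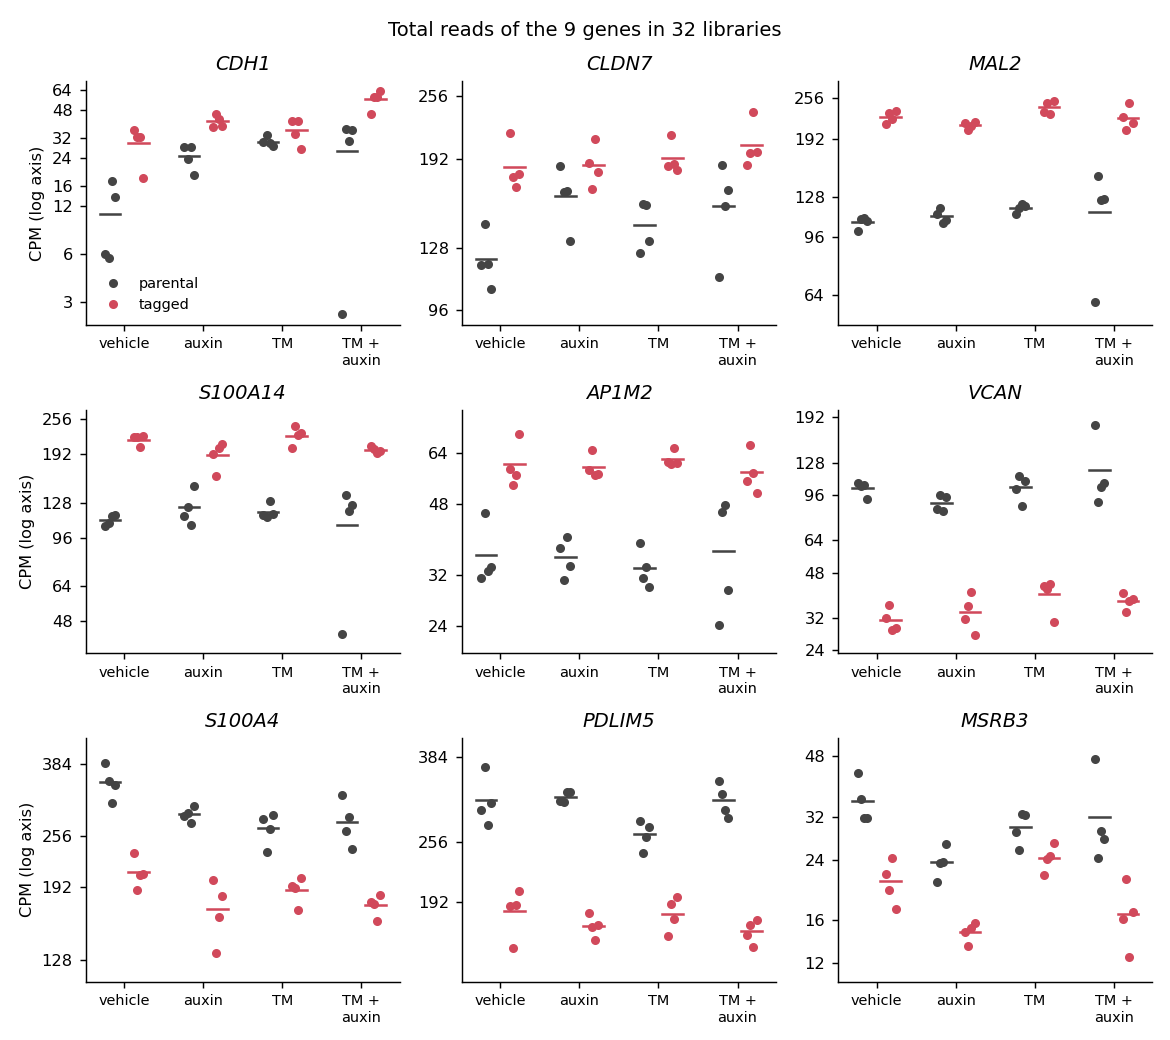
Total reads of each gene in CPM (vertical log axis, 1 panel per gene) in the 32 libraries, by treatment (vehicle, auxin, tunicamycin [TM], both). Points are single libraries, grey for parental and red for tagged cells, and bars are means of 4. Red means lie above grey ones in the first 5 panels and below them in the last 4, with overlapping points for CDH1, CLDN7 and MSRB3 in some treatments; the low grey points of CDH1, MAL2 and S100A14 under both drugs are the smallest library.

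CDH1 encodes E-cadherin, the adhesion receptor of epithelial adherens junctions (gene ID 999, at 68737292 to 68835537 on chromosome 16 in GRCh38.p14; reads counted over a 2042-base region of NM_004360.3). CDH1 gave 6.04, 5.65, 17.3 and 13.6 CPM in the 4 parental libraries with neither drug and 35.7, 32.7, 32.4 and 17.9 CPM in the tagged ones. With auxin, CDH1 was at 28.1, 23.7, 28.2 and 18.8 CPM in parental and 37.5, 45.3, 42.4 and 38 CPM in tagged cells. The parental group with neither drug had the lowest values of these 4 groups, and the lines were separated both without auxin, where 17.3 and 17.9 CPM faced each other, and with it. Under tunicamycin, CDH1 was at 30.1, 33.4, 29.9 and 28.4 CPM in parental and 41, 33.9, 41.2 and 27.4 CPM in tagged cells. With both drugs, CDH1 was at 2.54, 36.5, 30.8 and 35.8 CPM in parental and 45.1, 57.8, 58.3 and 63.4 CPM in tagged cells. The groups with tunicamycin alone overlapped; with both drugs every tagged well lay above every parental one. The fitted log2 difference between lines was 1.43 ± 0.32 (SE) with neither drug, 0.72 ± 0.29 with auxin, 0.23 ± 0.28 with tunicamycin and 0.94 ± 0.29 with both, or 0.71 ± 0.21 without the smallest library. CDH1 also varied most among wells of 1 group: its within-group SD on the log2 scale was 0.718, at the 94.2nd percentile of the genes tested, whose median was 0.321, while the other 8 genes lay between the 2.3rd and 44.1st percentiles. These levels rest on 2 to 299 reads per library.

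MAL2, a membrane protein of the vesicles that carry cargo to the apical surface (gene ID 114569, chromosome 8, 119208363 to 119245673), showed the largest difference among the epithelial genes in the mean of treatments, 0.99 ± 0.07 on the log2 scale, or 1.98-fold. MAL2 counted 100.2, 109.5, 110.0 and 108 CPM in parental and 213, 231, 222 and 235 CPM in tagged wells with neither drug. With auxin, MAL2 was at 113, 118, 106 and 109 CPM and 215, 205, 211 and 217 CPM, in the same order of lines. Parental wells clustered closely and every tagged well was far above them. Under tunicamycin, MAL2 was at 113, 118, 121 and 119.6 CPM and 233, 248, 229.9 and 251 CPM. With both drugs, MAL2 was at 61, 148, 125 and 126 CPM and 224, 204, 247 and 215 CPM. The separation was the same in kind in all 4 treatments, with log2 differences of 0.91 to 1.07. Without the smallest library the difference with both drugs was 0.74 ± 0.08 in place of 0.91 ± 0.13. An antisense gene model, MAL2-AS1, covers all 2185 counted bases on the other strand, and the sources used here do not say whether the counting used strand.

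CLDN7 encodes claudin-7, a tight-junction protein of intestinal and other epithelia (gene ID 1366, chromosome 17, 7259903 to 7263213, minus strand). CLDN7 read 118, 143, 119 and 106 CPM in parental and 216, 176, 169 and 179 CPM in tagged wells with neither drug. With auxin, CLDN7 was at 186, 165, 166 and 132 CPM in parental and 189, 167, 210.2 and 180.4 CPM in tagged wells. The first pair of groups did not overlap and the second did. Under tunicamycin, CLDN7 stood at 125, 156, 155 and 132 CPM against 186, 214, 187 and 182 CPM. With both drugs, CLDN7 stood at 112, 186, 154 and 166 CPM against 186, 197, 238 and 198 CPM. Here the groups were separated with tunicamycin alone, and with both drugs the highest parental well just passed the lowest tagged one. The log2 differences of CLDN7 were 0.61 ± 0.13, 0.20 ± 0.13, 0.44 ± 0.13 and 0.39 ± 0.13 with neither drug, auxin, tunicamycin and both. Without the smallest library the last was 0.28 ± 0.11. Its mean over treatments, 0.41 ± 0.07, was the smallest of the 5 epithelial genes. The 584-base region counted for CLDN7 lies wholly within the end of a second gene model on the same strand, AC003688.1, and shares 38 bases with ELP5 on the other strand (GENCODE v29), so reads of these genes cannot be told apart from its own; ELP5 itself differed by -0.09 ± 0.19 between lines (edgeR adjusted p = 0.86).

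S100A14, a small calcium-binding protein found mainly in epithelia (gene ID 57402, chromosome 1, 153614255 to 153616325, minus strand), and AP1M2, the epithelial µ subunit of the AP-1 clathrin adaptor that sorts proteins to the basolateral surface (gene ID 10053, chromosome 19, 10572671 to 10587312, minus strand), were separated between lines in every treatment. Their promoters are shown because, of the 3 epithelial genes whose promoters were searched (CLDN7, S100A14 and AP1M2; those of CDH1 and MAL2 were not used here), these are the ones with a match to the E-box CAGGTG (or CACCTG, its other strand), the hexamer bound by ZEB and SNAI repressors, in the 250 bases before and 50 after the start of the gene; both strands were searched and the capitals mark the matches. The sequences are RefSeq's for GRCh38.p14, written 5′ to 3′ along the gene, from chr1:153616276-153616575 (minus strand) and chr19:10587263-10587562 (minus strand).
S100A14: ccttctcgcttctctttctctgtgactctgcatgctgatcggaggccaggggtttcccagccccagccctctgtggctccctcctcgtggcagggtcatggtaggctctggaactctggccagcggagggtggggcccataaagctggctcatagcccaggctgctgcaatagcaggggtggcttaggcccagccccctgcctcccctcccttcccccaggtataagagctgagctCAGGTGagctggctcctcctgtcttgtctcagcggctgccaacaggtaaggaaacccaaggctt
AP1M2: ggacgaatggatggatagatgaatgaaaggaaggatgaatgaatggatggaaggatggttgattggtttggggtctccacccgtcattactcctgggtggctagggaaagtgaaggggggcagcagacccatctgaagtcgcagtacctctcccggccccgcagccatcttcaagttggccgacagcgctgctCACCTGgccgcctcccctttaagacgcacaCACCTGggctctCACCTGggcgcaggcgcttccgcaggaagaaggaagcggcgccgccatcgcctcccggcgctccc
S100A14 holds 1 match that begins 14 bases before the start, and AP1M2 holds 3, at 57, 27 and 15 bases before it. Such a match was found in 20.6% of 27305 promoters of this length and in 18.3% of those of tested genes, and in 3 of the 7 promoters of these genes that were matched in the table (CLDN7, S100A14, AP1M2, VCAN, S100A4, PDLIM5 and MSRB3). The GRHL motif AACCGGTT was in 0 of the 7, and in 0.117% of all promoters. A match is a string of letters and shows no binding.

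In reads, S100A14 was at 111 ± 5.02 CPM (SD, n = 4) in parental and 220.4, 221, 203 and 222 CPM in tagged wells with neither drug. With auxin, S100A14 was at 115, 124, 107 and 147 CPM and 193, 160.0, 202 and 209 CPM. Under tunicamycin, S100A14 was at 116.1, 114, 129.7 and 117 CPM and 202, 242, 224 and 228 CPM, and with both drugs at 43.2, 136, 119.8 and 126 CPM and 205, 201, 194 and 197 CPM. The lowest tagged well of the auxin groups was still above the highest parental one. The log2 differences were 0.96 ± 0.16, 0.63 ± 0.16, 0.91 ± 0.16 and 0.85 ± 0.17, the last 0.64 ± 0.09 without the smallest library. AP1M2 was at 31.5, 45.5, 32.9 and 33.6 CPM in parental and 58.7, 53.6, 56.7 and 71.4 CPM in tagged wells with neither drug. With auxin, AP1M2 was at 37.3, 31.2, 39.8 and 33.8 CPM and 58.4, 65.4, 56.6 and 56.9 CPM. Under tunicamycin, AP1M2 was at 38.5, 31.6, 33.5 and 30 CPM and 61, 60.3, 66.1 and 60.7 CPM, and with both drugs at 24.2, 45.9, 47.7 and 29.5 CPM and 54.8, 67.1, 57.3 and 51.2 CPM. The tagged wells of this gene kept to 51.2 to 71.4 CPM throughout and the parental ones to 24.2 to 47.7 CPM. Its log2 differences ran from 0.59 ± 0.16 with both drugs to 0.90 ± 0.15 with tunicamycin alone. Without the smallest library the former was 0.49 ± 0.14. None of the other 7 AP-1 subunit genes passed the test between lines, AP1M1, the ubiquitous µ subunit, being at -0.23 ± 0.10 (edgeR adjusted p = 0.256).

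VCAN encodes versican, a large chondroitin sulfate proteoglycan of the extracellular matrix (gene ID 1462, chromosome 5, 83471744 to 83582302, plus strand), and had the largest difference of the 9 genes, -1.53 ± 0.08 on the log2 scale in the mean of treatments, or 2.89-fold lower in tagged cells. VCAN was at 107, 104, 105 and 92.9 CPM in parental and 32, 36, 28.8 and 29.4 CPM in tagged wells with neither drug. With auxin, VCAN was at 84.8, 96, 83 and 94.4 CPM and 31.6, 35.8, 40.4 and 27.5 CPM. Over all treatments the highest tagged well, at 43.4 CPM, was far below the lowest parental one, at 83 CPM. Under tunicamycin, VCAN was at 101, 114, 87.4 and 109 CPM and 42.7, 41.6, 43.4 and 30.8 CPM. With both drugs, VCAN was at 179, 90.1, 103 and 107 CPM and 40.1, 33.7, 37.2 and 38.1 CPM. The single high parental value there belongs to the smallest library, without which the log2 difference under both drugs was -1.43 ± 0.12 in place of -1.64 ± 0.16. An antisense model, VCAN-AS1, shares 886 of the 1869 counted bases. Of the other lecticans and link proteins HAPLN3 alone had reads enough to be tested and differed by -0.32 ± 0.25 (edgeR adjusted p = 0.587).

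S100A4, a calcium-binding protein that binds non-muscle myosin and is linked to cell motility (gene ID 6275, chromosome 1, 153543621 to 153545806, minus strand), starts 70.6 kb from S100A14 in the same cluster of S100 genes and differed in the opposite direction. Its promoter, at chr1:153545757-153546056 (minus strand, RefSeq, GRCh38.p14), is shown beside those of S100A14 and AP1M2 because it holds the remaining E-box match, which begins 164 bases before the start (capitals).
S100A4: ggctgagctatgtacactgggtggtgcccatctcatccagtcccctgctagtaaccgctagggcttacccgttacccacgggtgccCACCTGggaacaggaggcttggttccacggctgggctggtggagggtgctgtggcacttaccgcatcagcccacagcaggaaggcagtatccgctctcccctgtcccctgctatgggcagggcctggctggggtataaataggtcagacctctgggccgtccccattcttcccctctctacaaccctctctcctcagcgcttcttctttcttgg
S100A4 was at 386, 349, 309 and 341 CPM in parental and 234, 189, 206 and 207 CPM in tagged wells with neither drug. With auxin, S100A4 was at 287, 292, 276 and 303 CPM and 200.4, 133, 162 and 183 CPM. Under tunicamycin, S100A4 was at 281, 235, 266 and 288 CPM and 194, 191, 169 and 202 CPM, and with both drugs at 323, 264, 285 and 239 CPM and 177, 175, 159.5 and 184 CPM. All 16 tagged wells were below every parental one, the closest being 234 CPM (tagged, neither drug) and 235 CPM (parental, tunicamycin). The log2 differences were -0.73 ± 0.11, -0.77 ± 0.11, -0.50 ± 0.11 and -0.67 ± 0.11, the last -0.6 ± 0.1 without the smallest library. Among 7 other S100 genes tested S100A10, the annexin A2 partner, was higher in tagged cells (0.23 ± 0.05, edgeR adjusted p = 0.0033) and the other 6 did not pass. They include S100A3, S100A2, S100A16 and S100A13, which lie between or beside S100A4 and S100A14 and differed by -0.11 to 0.42.

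PDLIM5, a PDZ and LIM domain protein that joins kinases to the actin cytoskeleton (gene ID 10611, chromosome 4, 94451942 to 94668223, plus strand), was at 298, 365, 277 and 307 CPM in parental and 188, 154, 189 and 202 CPM in tagged wells with neither drug. With auxin, PDLIM5 was at 311, 309.7, 324 and 324 CPM and 182, 171, 160.1 and 172 CPM. Under tunicamycin, PDLIM5 was at 283, 242, 261 and 274 CPM and 163, 189.7, 176 and 197 CPM, and with both drugs at 342, 321, 298 and 287 CPM and 164, 172, 155 and 176 CPM. All 16 tagged wells lay at 154 to 203 CPM and all 16 parental wells at 242 to 365 CPM. Its log2 differences were -0.76 ± 0.10, -0.89 ± 0.10, -0.55 ± 0.10 and -0.90 ± 0.10, the last -0.86 ± 0.09 without the smallest library. Its within-group SD, 0.116, was the lowest of the 9 genes (2.3rd percentile). Of the other PDLIM5 transcripts with counts of their own, the shorter forms NM_001256427.1 and NM_001011516.2 were lower in tagged cells too, by -0.58 and -0.61 (log2 ratio of line means). Their lines overlapped, at 34.2 to 79.1 and 6.54 to 13.2 CPM in parental and 26.2 to 60.0 and 2.06 to 12.3 CPM in tagged wells. The form NM_001256429.1 differed by -0.19 on 159 reads in all libraries together. The paralogue PDLIM1 went the other way: 43.2 to 79.1 (median 56) CPM in parental and 69.8 to 105 (median 83.8) CPM in tagged wells, 0.59 ± 0.07 on the log2 scale (edgeR adjusted p = 3.09e-07), and 0.95 ± 0.20 in labelled reads (edgeR adjusted p = 0.00419).

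MSRB3, a methionine sulfoxide reductase of the endoplasmic reticulum and mitochondria (gene ID 253827, chromosome 12, 65278683 to 65466907, plus strand), had the fewest reads of the 9 genes, with 37 to 224 per parental and 42 to 109 per tagged library. MSRB3 was at 42.9, 36, 31.7 and 31.6 CPM in parental and 21.8, 19.6, 24.3 and 17.3 CPM in tagged wells with neither drug. With auxin, MSRB3 was at 20.7, 23.4, 23.6 and 26.6 CPM and 14.8, 13.5, 15.2 and 15.7 CPM. Under tunicamycin, MSRB3 was at 28.9, 25.6, 32.5 and 32.4 CPM and 21.7, 24.1, 24.6 and 26.9 CPM, and with both drugs at 47, 24.3, 29.1 and 27.5 CPM and 16.2, 21.1, 12.5 and 16.9 CPM. Its 3585 counted bases are covered on the other strand by the model AC025419.1. Only under tunicamycin alone did the lines overlap, where the log2 difference was -0.29 ± 0.16, against -0.78 ± 0.17, -0.67 ± 0.17 and -0.87 ± 0.17 in the other treatments. Without the smallest library, where MSRB3 was at 47 CPM, the last was -0.72 ± 0.16. The other reductases MSRA, MSRB1 and MSRB2 did not pass the test (0.10 ± 0.10, 0.05 ± 0.06 and -0.20 ± 0.09).

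Labelled reads are meant to mark RNA made during the last 2 h. They separated the lines for 6 of the 9 genes with neither drug (4.16% of 8980 genes), 4 with auxin (5.36%), 2 with tunicamycin (6.24%) and 3 with both (4.09%). MAL2 was higher in labelled reads without overlap in all 4 treatments (0.0111% of 8980 genes), and VCAN lower (0.0557%). PDLIM5 was separated in 3 treatments, S100A4 in 2, CDH1 and CLDN7 in 1, and S100A14, AP1M2 and MSRB3 in none. Labelled reads are a part of the reads by which the genes were found. These counts, and the directions that follow, are therefore no independent support for the difference between lines. In the mean of treatments the labelled reads of all 9 genes differed in the same direction as the total reads: by 1.11 ± 0.19 (log2) for CDH1, 0.57 ± 0.11 for CLDN7, 0.97 ± 0.11 for MAL2, 0.56 ± 0.13 for S100A14 and 0.79 ± 0.26 for AP1M2. The mesenchymal genes stood at -1.81 ± 0.17 for VCAN, -0.75 ± 0.17 for S100A4, -0.62 ± 0.09 for PDLIM5 and -0.31 ± 0.27 for MSRB3. Without the smallest library MSRB3 was at -0.17 ± 0.26, and with both drugs at -0.03 ± 0.56 in place of -0.59 ± 0.58. The one reversed value within a treatment was MSRB3 with auxin alone, 0.50 ± 0.56, from 3 to 16 labelled reads per library. AP1M2 had 0 to 17 labelled reads per library and its labelled difference moved to 1.07 without replicate 2 of parental cells with both drugs.

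**Figure D2:**
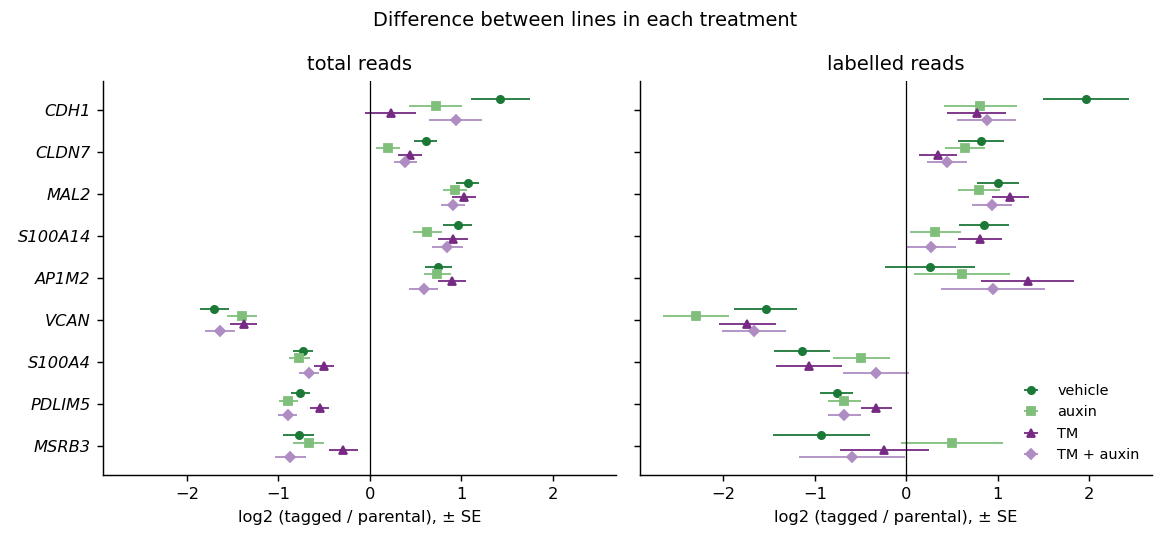
Log2 difference between tagged and parental cells (horizontal axis, with SE) of the 9 genes in each treatment, for total reads on the left and labelled reads on the right. Total reads of all 5 epithelial genes lie to the right of 0 and those of all 4 mesenchymal genes to the left in each treatment; in labelled reads the errors are wider and MSRB3 with auxin lies to the right.

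The labelled share of a gene, its labelled reads against its other reads relative to the typical gene, had a smaller mean difference between lines than the total reads in each of the 9 genes, a description with no test. Its mean log2 difference was 0.36 ± 0.21 for CDH1, 0.20 ± 0.10 for CLDN7, 0.01 ± 0.10 for MAL2, -0.26 ± 0.12 for S100A14 and 0.07 ± 0.23 for AP1M2. For the mesenchymal genes it was -0.33 ± 0.18 for VCAN, -0.10 ± 0.14 for S100A4, 0.16 ± 0.09 for PDLIM5 and 0.38 ± 0.25 for MSRB3. Choosing genes by a difference in reads favours a larger difference in reads than in the share. Within single treatments the share differences of the 9 genes ran from -0.52 to 0.66 with neither drug and -0.95 to 1.31 with auxin. They ran from -0.57 to 0.65 with tunicamycin and -0.5 to 0.49 with both. MAL2, with a 1.98-fold difference in reads, was labelled in 6.67 ± 2.66% (SD, n = 4) of its reads in parental and 6 ± 0.977% in tagged cells with neither drug.

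Other genes of both kinds were tested between lines in the mean of the 4 treatments. Of 68 epithelial genes in 4 lists 59 could be tested; 18 were higher in tagged cells (edgeR adjusted p under 0.05), where 1.35% of all genes were, and 1 was lower, where 2.04% were. Their median was 0.21 on the log2 scale, against -0.01 for all genes. Without the smallest library 27 were higher, and 6.49% of all genes passed in either direction. PATJ, a polarity scaffold, was the 1 lower gene (-0.54 ± 0.11, edgeR adjusted p = 0.0025). Of 55 mesenchymal genes in 3 lists only 30 could be tested; 0 were higher and 5 were lower, with a median of -0.1. The lists were drawn up with earlier results of these libraries known, so the counts are not independent of them.

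**Figure D3:**
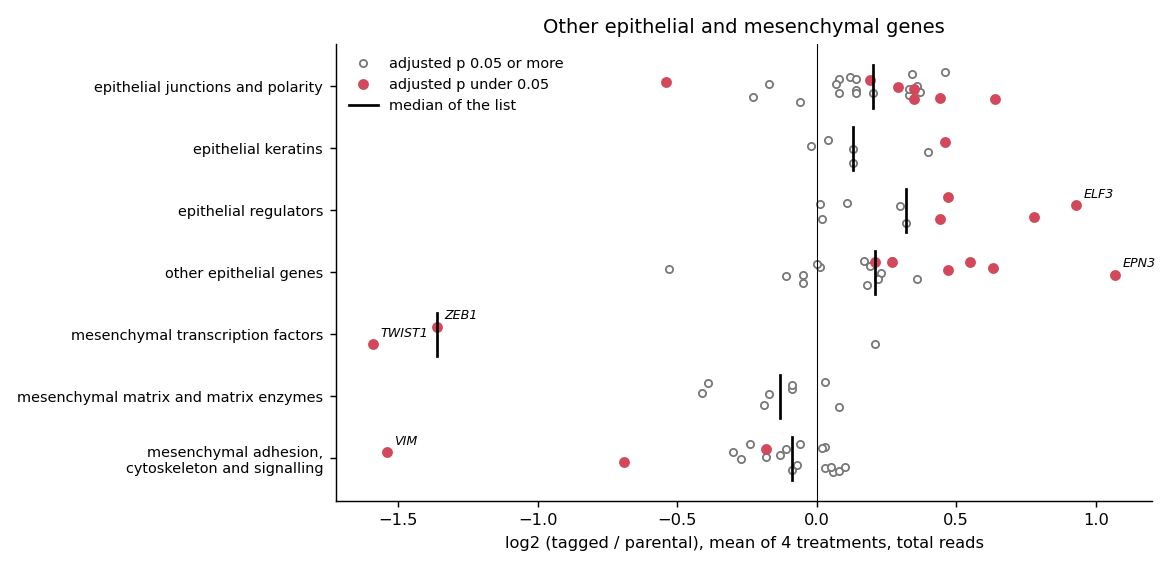
Log2 difference between tagged and parental cells in total reads (horizontal axis, mean of 4 treatments) for the tested genes of 4 epithelial and 3 mesenchymal lists. Each point is a gene, filled where the edgeR adjusted p was under 0.05, and vertical bars are medians of the whole lists (1 junction gene is not drawn); filled points are mostly right of 0 in the epithelial lists and all left of 0 in the mesenchymal ones.

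Among junction genes CLDN4, another claudin, was at 35.6 to 58.9 (median 50.9) CPM in parental and 58.9 to 108 (median 75.3) CPM in tagged wells, a log2 difference of 0.64 ± 0.06 (edgeR adjusted p = 1.14e-08), and EPCAM, the pan-epithelial adhesion molecule, at 125 to 284 (median 248) and 239.5 to 436 (median 319.6) CPM (0.44 ± 0.07, edgeR adjusted p = 0.000191). CLDN4 did not overlap between lines in any treatment. The 3 catenins that bind E-cadherin did not pass, with CTNNB1 at 0.08 ± 0.09 and CTNNA1 at 0.06 ± 0.06. Of the keratins KRT8 passed narrowly (0.46 ± 0.13, edgeR adjusted p = 0.0465) and lost its call when any of 27 single libraries was left out, while its partner KRT18 was at -0.02 ± 0.07. Of 9 epithelial regulators 4 were higher: ELF3 (0.93 ± 0.11, edgeR adjusted p = 7.64e-07; 7.1 to 15.8 (median 10) CPM in parental and 14.6 to 27.2 (median 18.3) CPM in tagged wells), GRHL2 (0.78 ± 0.17, edgeR adjusted p = 0.00594), ESRP1 (0.47 ± 0.08, edgeR adjusted p = 0.000182) and OVOL1 (0.44 ± 0.10, edgeR adjusted p = 0.0053). Of the remaining epithelial genes EPN3, an epsin of endocytosis, led with 1.07 ± 0.20 (edgeR adjusted p = 0.00135), followed by C1orf116 (0.63 ± 0.14), BSPRY (0.55 ± 0.11) and the membrane protease ST14 (0.47 ± 0.10).

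Of the mesenchymal genes that were lower, VIM, the intermediate filament vimentin, stood at 4.56 to 12.4 (median 7.1) CPM in parental and 1.52 to 5.17 (median 2.07) CPM in tagged wells, a log2 difference of -1.54 ± 0.16 (edgeR adjusted p = 8.69e-08). The repressor ZEB1 was at 1.27 to 9.49 (median 4.75) and 0.78 to 5.52 (median 1.8) CPM (-1.36 ± 0.18, edgeR adjusted p = 9.44e-06), and TWIST1 at 0.486 to 5.83 (median 1.59) and 0 to 2.76 (median 0.57) CPM (-1.59 ± 0.37, edgeR adjusted p = 0.0108). The lines overlapped in at least 2 treatments for each of these. CCN2 (-0.69 ± 0.19, edgeR adjusted p = 0.041) and CAV1 (-0.18 ± 0.05, edgeR adjusted p = 0.0341) passed narrowly, and these calls were lost when single libraries were left out, in 19 and 12 of 32 cases. SNAI1 did not pass (0.21 ± 0.25, edgeR adjusted p = 0.738), TWIST2 was at 0, and CDH2, the cadherin of mesenchymal cells, had 1 read in all 32 libraries. None of 8 matrix genes tested passed, COL1A1 being at -0.09 ± 0.09. In labelled reads 45 of the epithelial and 19 of the mesenchymal genes could be tested: 7 epithelial genes were higher (0.423% of 8980 genes were higher and 0.423% lower), among them ELF3 (0.95 ± 0.17, edgeR adjusted p = 0.000272), CLDN4 (0.65 ± 0.11, edgeR adjusted p = 3.8e-05) and ESRP1 (0.40 ± 0.08, edgeR adjusted p = 0.00215), and 0 of either kind were lower. With labelled reads scaled by total reads, 68 of the 8980 genes differed between lines and 30.9% of these were higher.

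The 9 genes lie on 8 chromosomes. Of the 51 tested genes that are the next 3 on either side of one of them, 2 were higher and 2 lower in tagged cells, with a median of -0.01. Of all genes tested, 1.35% were higher and 2.04% lower. CDH3, P-cadherin, which ends 3.52 kb before CDH1, was higher (0.35 ± 0.07, edgeR adjusted p = 0.0044), as was S100A10, which starts 1561 kb from the start of S100A4. HMGA2, an architectural chromatin protein that starts 358 kb beyond the end of MSRB3, was lower (-0.53 ± 0.04, edgeR adjusted p = 3.1e-10), and FAM13A, whose start is 5726 kb from that of PDLIM5, was lower (-0.44 ± 0.11, edgeR adjusted p = 0.017). The tested genes nearest to S100A14 (S100A16 and S100A13, across gaps of 1.12 and 2.47 kb) and to AP1M2 (CDKN2D, 3.69 kb) did not pass.

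By the root mean square difference of centred log2 CPM over the 32 libraries, MAL2 and S100A14 were each other's most alike genes (0.158), against a spread of 0.54 and 0.522 of each around its own mean, and AP1M2 was nearest to MAL2 (0.232). S100A4 and PDLIM5 were each other's nearest (0.165). VCAN was most like NT5DC1 (0.391) and CDK6 (0.411), and MSRB3 most like HBE1 (0.239) and S100A4 (0.253). CLDN7 was nearest to NQO1 (0.2). CDH1 had no close match: its nearest gene, EMC2, differed by 0.425 against a spread of 0.943. All libraries of a line share the line, so likeness here includes that common difference.

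The tunicamycin effect, averaged over both lines with and without auxin, did not enter the selection and was tested. In total reads 2 of the 9 genes passed, where 21.9% of all genes did: CDH1 rose by 0.62 ± 0.15 on the log2 scale (edgeR adjusted p = 0.00224) and VCAN by 0.21 ± 0.08 (edgeR adjusted p = 0.0442). The call for VCAN was lost when any of 17 single libraries was left out. Without the smallest library 4 passed, where 30.8% of all genes did: CDH1 (0.67 ± 0.11, edgeR adjusted p = 4.82e-06), VCAN (0.16 ± 0.06, edgeR adjusted p = 0.0315), MAL2 (0.14 ± 0.04, edgeR adjusted p = 0.00266) and S100A4, which was then lower (-0.15 ± 0.05, edgeR adjusted p = 0.0132). The other 7 genes lay between -0.14 and 0.13 with all libraries.

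In labelled reads CDH1 rose by 1.80 ± 0.19 (log2, edgeR adjusted p = 6.19e-13), MAL2 by 0.94 ± 0.11 (edgeR adjusted p = 3.24e-11), CLDN7 by 0.80 ± 0.11 (edgeR adjusted p = 2.08e-08), S100A14 by 0.67 ± 0.13 (edgeR adjusted p = 3.33e-05) and VCAN by 0.48 ± 0.18 (edgeR adjusted p = 0.0286). S100A4 fell, at -0.66 ± 0.17 (edgeR adjusted p = 0.00109). That makes 5 of 9 higher and 1 lower, where 16.9% of all genes were higher and 17.7% lower. The fall of S100A4 rests on 2 to 40 labelled reads per library. By line it was -0.72 ± 0.22 in parental (edgeR adjusted p = 0.0103) and -0.6 ± 0.26 in tagged cells (edgeR adjusted p = 0.0875). Its labelled share passed in neither line alone (edgeR adjusted p = 0.0662 in parental and 0.0925 in tagged cells). In the labelled share 5 were higher (13.5% of all genes) and 1 lower (14.7%). They were CDH1 (1.38 ± 0.20), MAL2 (0.93 ± 0.11), CLDN7 (0.80 ± 0.10), S100A14 (0.72 ± 0.12), PDLIM5 (0.30 ± 0.09) and, lower, S100A4 (-0.49 ± 0.14, edgeR adjusted p = 0.00481). AP1M2 and MSRB3 passed in none of the readings. These values are relative to the typical gene's labelling. With labelled reads scaled by total reads in place of their own factors, the median of all genes moved from -0.03 to -0.28 in labelled reads and from -0.06 to -0.36 in the share, and 4704 and 4890 of 8980 genes passed, of which 18% and 9.7% were higher. CDH1, CLDN7, MAL2 and S100A14 still passed as higher and S100A4 as lower in both readings on that scale, while VCAN in labelled reads (0.24, edgeR adjusted p = 0.27) and PDLIM5 in the share (-0.00, edgeR adjusted p = 0.994) did not.

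As percentages of a gene's reads, MAL2 was labelled at 10.5, 6.52, 4.73 and 4.95% in parental wells with neither drug and 10.3, 9.68, 7.6 and 10.8% with tunicamycin. In tagged wells MAL2 was labelled at 6.01, 7.2, 5.99 and 4.81% and 9.91, 11.4, 10.6 and 10%. The tagged wells with tunicamycin were all above those without it, and of the parental wells replicate 1 without drugs, at 10.5%, overlapped them. CLDN7 went from 6.96 ± 1.63% (SD, n = 4) to 12.3 ± 2.28% in parental and from 8.05 ± 2.8% to 11.7 ± 1.33% in tagged cells without auxin. With auxin the CLDN7 share changed less, from 10.1 ± 2.9% to 11.9 ± 4.23% in parental and from 13.2 ± 2.51% to 13.5 ± 2.3% in tagged cells. CDH1 was labelled at 16.8, 12, 9 and 19.1% in tagged wells with neither drug and 30.3, 29, 19.1 and 18% with tunicamycin, groups that overlapped; in parental wells with neither drug its share spread from 2.74% to 36.8% on 1 to 7 labelled reads. S100A4 was labelled at 2.55, 3.07, 3.06 and 2.64% in parental wells with neither drug and 1.71, 1.45, 1.92 and 1.46% with tunicamycin. In the tagged wells of S100A4 the shares were 2.42, 1.38, 2.2 and 2.16% and 0.712, 0.498, 1.97 and 1.22%. Its parental groups did not overlap and its tagged groups did.

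**Figure D4:**
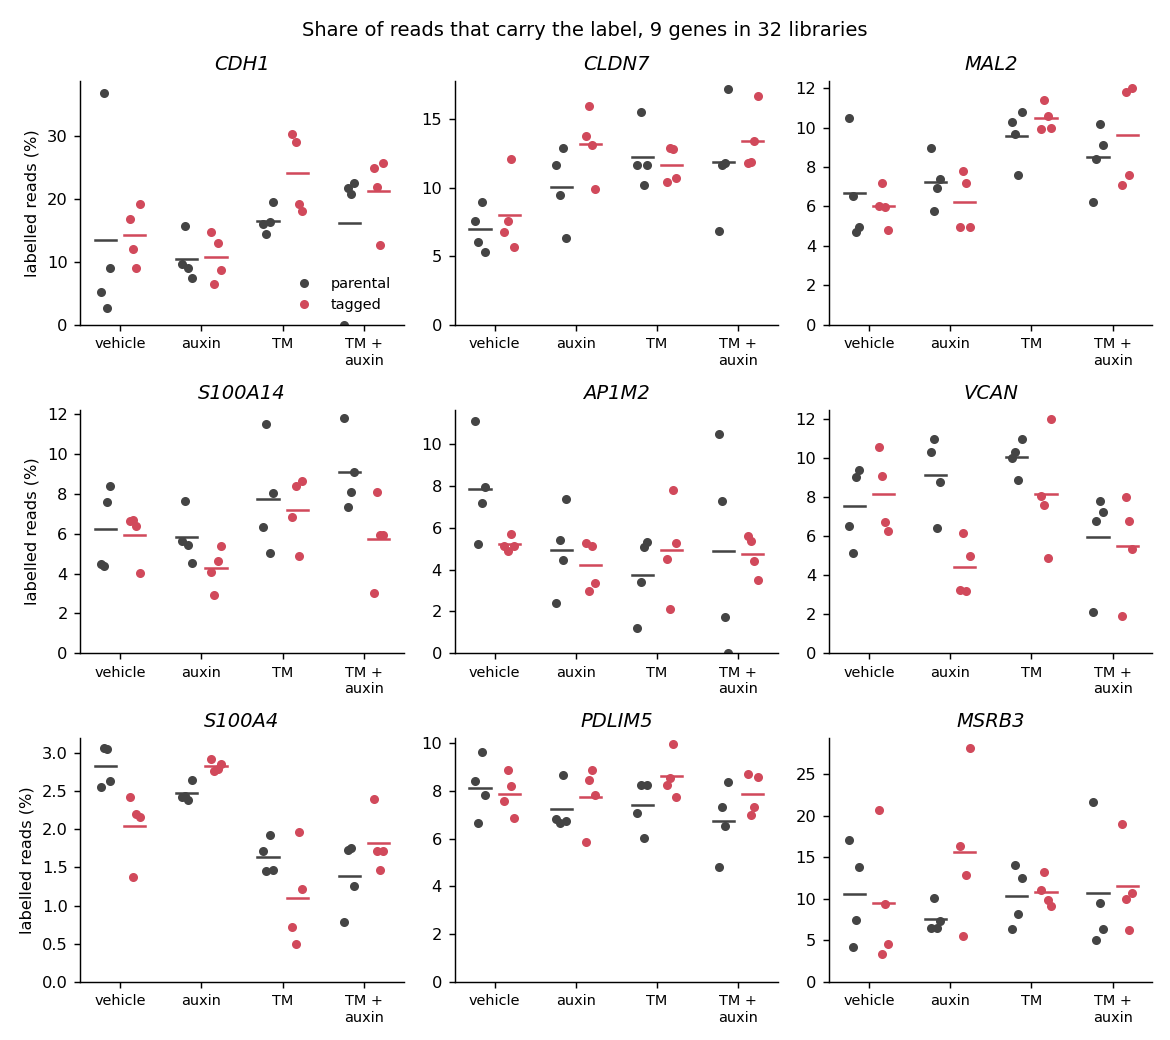
Labelled reads as a percentage of each gene's reads (vertical axis from 0, scale differing between panels) in the 32 libraries by treatment, grey for parental and red for tagged cells, with means of 4 as bars. Mean shares of CLDN7 and MAL2 are higher with tunicamycin (TM) alone than with neither drug in both lines, and those of S100A4 are lower. With auxin the CLDN7 means of tagged cells differ little by tunicamycin. AP1M2 and MSRB3 scatter widely on few labelled reads.

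**Figure D5:**
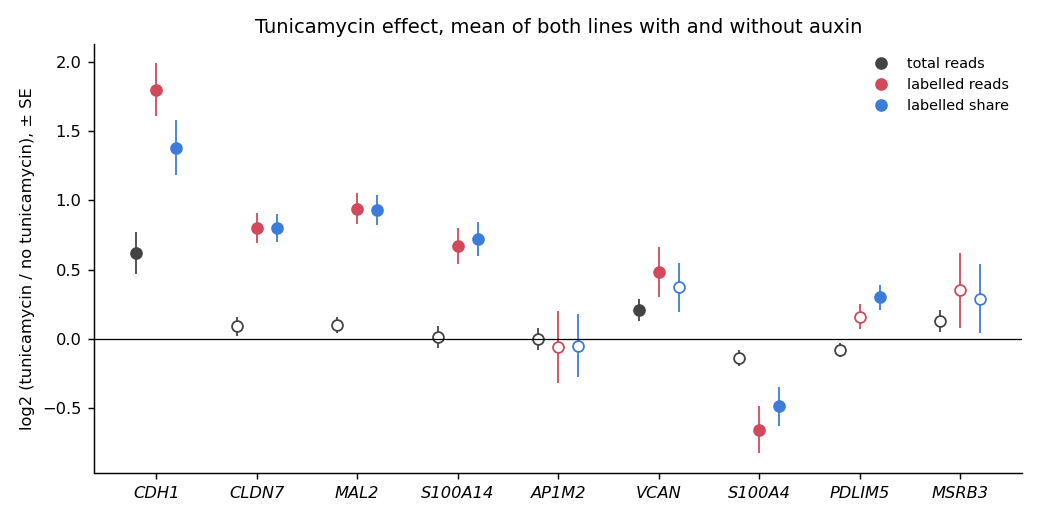
Log2 tunicamycin effect (vertical axis, with SE, mean of both lines with and without auxin) on total reads, labelled reads and the labelled share of each gene; filled points have an edgeR adjusted p under 0.05. Labelled reads of CDH1, CLDN7, MAL2 and S100A14 lie at 0.67 to 1.80, whereas of their total reads only those of CDH1 passed.

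Auxin is meant to remove the tagged protein, which parental cells do not have. In tagged cells 1 of the 9 genes passed in total reads, where 13.6% of all genes did: MSRB3 fell, at -0.52 ± 0.12 on the log2 scale (edgeR adjusted p = 0.00823), from 20.8 ± 2.98 to 14.8 ± 0.944 CPM (SD, n = 4) without tunicamycin and from 24.3 ± 2.12 to 16.7 ± 3.52 CPM with it. CDH1 was at 0.56 ± 0.20 (edgeR adjusted p = 0.0602) and S100A4 at -0.21 ± 0.08 (edgeR adjusted p = 0.0702). In parental cells 0 of 9 passed with edgeR (1.18% of all genes did). An unadjusted p under 0.05 was found for 3, as for 16% of all genes. With DESeq2 1 passed, where the share of all genes is not given here. The parental values were 0.57 ± 0.22 for CDH1, 0.28 ± 0.09 for CLDN7 and -0.29 ± 0.12 for MSRB3 (edgeR adjusted p = 0.18, 0.123 and 0.204). Without the smallest library, where 11.9% of all genes passed in parental and 33.1% in tagged cells, these 3 passed in parental cells, CDH1 at 0.68 ± 0.16, CLDN7 at 0.34 ± 0.08 and MSRB3 at -0.36 ± 0.11, and 4 passed in tagged cells: CDH1 (0.57 ± 0.14), S100A14 (-0.18 ± 0.06), S100A4 (-0.21 ± 0.07) and MSRB3 (-0.53 ± 0.11). CDH1 was higher and MSRB3 lower with auxin in both lines by these values.

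The difference of the auxin effect between lines, tested directly, passed for 0 of 9 genes with edgeR and 0 with DESeq2, where 0.34% of all genes passed with edgeR; 1 of the 9, PDLIM5, had an unadjusted p under 0.05, as had 14.4% of all genes (-0.24 ± 0.10, edgeR adjusted p = 0.264). Without the smallest library, where 2.56% of all genes passed, S100A14 did so at -0.31 ± 0.09 (edgeR adjusted p = 0.0492). Since the genes were chosen by their differences between lines over the 4 treatments, the choice favours differences that kept their direction. That limits what this comparison can show for the 9 genes, although the size of a difference could still vary. For the 9 genes the difference of the auxin effect between lines ran from -0.24 to 0.02 with SE of 0.1 to 0.25. In tagged cells VCAN was at 33.8 ± 5.54 CPM with auxin and 31.5 ± 3.24 CPM without, against 102 ± 6.28 CPM in parental cells, and MAL2 at 212 ± 5.58, 225 ± 9.95 and 107 ± 4.56 CPM. In labelled reads of tagged cells CLDN7 passed (0.65 ± 0.15, edgeR adjusted p = 0.00979; 3.63% of all genes passed), as it did in the labelled share (0.69 ± 0.14, edgeR adjusted p = 0.00552; 0.256%). Its labelled reads in parental cells were at 0.69 ± 0.16 (edgeR adjusted p = 0.0494), where 16 of 8980 genes passed. The parental labelled share of CLDN7 did not pass (0.43 ± 0.15, edgeR adjusted p = 0.448). Between lines the auxin effect on its labelled reads differed by -0.04 ± 0.22 (edgeR adjusted p = 0.973).

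The tunicamycin effect was compared between lines directly. With edgeR 0 of 9 genes passed (smallest adjusted p = 0.999), as did 0.0% of all 11186 genes, of which 330 had an unadjusted p under 0.05; DESeq2 called 0 of the 9. CDH1 had the largest difference, -0.49 ± 0.30: its total reads were higher with tunicamycin by 0.86 ± 0.22 in parental cells (edgeR adjusted p = 0.00537) and by 0.37 ± 0.20 in tagged cells (edgeR adjusted p = 0.313). With the leading axis of variation among wells of a group as a covariate it passed, at -0.62 (edgeR adjusted p = 0.0282). This was the only 1 of 37 alternatives in which it passed, and the share of all genes passing there is not given here. On that axis the smallest library lay at 4.6 and the others at -1.33 to 1.19. Without that library the CDH1 difference was -0.59 ± 0.21 (edgeR adjusted p = 0.495). The limit that the choice of genes sets holds here too.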

How the data were processed

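SLAM-seq 3′-end libraries of 32 wells (8 groups of 4) were analysed. The authors deposited, per the file headers, counts per transcript region: all reads and reads with T-to-C conversions. The build is hg38, per the submitters' processing notes; the Slamdunk version, annotation release and use of strand in counting are not given in the sources used here. RefSeq identifiers were matched to gene symbols; unmatched rows held 36.88% to 43.46% of reads and were left out. Each gene is represented by its row with most reads. Total and labelled reads were tested with edgeR 4.0.16 (R 4.3.3; quasi-likelihood, TMM, low-count filter, 1 coefficient per group, Benjamini-Hochberg over 11186 or 8980 genes, threshold 0.05), and the labelled share by labelled against other reads within libraries. DESeq2 1.42.0, no filter, other rows, a replicate block, a within-group axis (7119 genes with a mean of at least 20 CPM, 40.6% of within-group variance, found without the smallest library), another scaling and leaving out each library were alternatives. The tests were checked on simulated data. Members and lists were chosen with earlier results of these data known. All 9 genes are named, and of each list up to 4 genes with the largest difference among those that passed, with genes whose absence matters. A result among the listed genes is not reported here.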

Additional observations from a re-analysis of the deposited data

Results flagged for a closer look

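In 144 sets of 4 libraries (9 genes, 8 groups, CPM and labelled share) the highest or lowest library was compared with its neighbours by Dixon's ratio of gap to range at its 95% critical value. A library stood apart in 9 sets, and chance flags about 1 in 20 groups, or 7.2 here. CDH1 gave 2.54 CPM and a labelled share of 0% in replicate 1 of parental cells with tunicamycin and auxin, the smallest library, against 30.8 to 36.5 CPM and 20.7% to 22.4% in the other wells; the share rests on 2 reads. CLDN7 stood at 214 CPM in replicate 2 of tagged cells with tunicamycin, above 182 to 187 CPM. S100A14 was at 203 CPM in replicate 3 of tagged cells with neither drug, below 220.4 to 223 CPM. AP1M2 was at 45.5 CPM in replicate 2 of parental cells with neither drug, above 31.5 to 33.6 CPM, and at 66.1 CPM in replicate 3 of tagged cells with tunicamycin, above 60.3 to 61 CPM. VCAN was at 30.8 CPM in replicate 4 of tagged cells with tunicamycin, below 41.6 to 43.4 CPM. The labelled share of S100A14 was 4.01% in replicate 4 of tagged cells with neither drug, below 6.38% to 6.67%, and that of PDLIM5 was 8.68% in replicate 3 of parental cells with auxin, above 6.68% to 6.81%.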

How the results depend on the processing

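Depth limits CDH1 (2 to 299 reads per library), MSRB3 (37 to 224) and the labelled reads of AP1M2 (0 to 17) and S100A4 (2 to 40). Leaving out each library in turn moved the number of the 9 genes passing for tunicamycin in total reads between 1 and 4, for auxin in tagged cells between 1 and 4, for auxin in parental cells between 0 and 3 and for the tag-dependent auxin effect between 0 and 1; other epithelial genes higher ran from 15 to 27 and other mesenchymal genes lower from 3 to 5. With the leading within-group axis as a covariate the counts were 5 for tunicamycin, 3 and 4 for auxin in tagged and parental cells, 1 for line by tunicamycin and 32 for other epithelial genes higher. DESeq2 gave 2 and 1 for auxin in tagged and parental cells, and a fit to the tagged line alone gave 4. With labelled reads scaled by total reads the PDLIM5 share no longer differed, at -0.00. For tunicamycin, leaving out any of 17 libraries gave 1 gene and leaving out the smallest gave 4. For auxin in tagged cells the count was 4 without the smallest library and 2 without replicate 2 or 3 of parental cells with neither drug, replicate 1 of tagged cells with auxin or replicate 3 of tagged cells with tunicamycin. The causes were not tested, apart from fewer libraries where libraries were left out. The share of all genes that passed also changed without the smallest library, as given above. Under the other settings that share is not given here, so these counts are not a result about the 9 genes. Counts for labelled reads (5 to 6) and the labelled share stayed within 1.5 times of 6. No alternative turned the direction of a called gene, the PDLIM5 share at -0.00 aside.

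Replicate numbers were not used to pair the samples in the main fits. Of 112 same-numbered pairs 48 had deviations correlated over 0.1 (-0.614 to 0.68, median 0.047). Differently numbered pairs were not compared, so these values cannot exclude a pairing. With a replicate block 2 genes passed for auxin in tagged cells, and the share of all genes that passed is not given here. The other counts stayed within 1.5 times.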

Other observations

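Beside the 6 genes described above, other genes were separated between the lines without overlap in all 4 treatments; those named here are given as values, since this separation chose them. Higher in tagged cells were SYK, a kinase of immune receptor signalling also found in epithelia (log2 difference 2.19), CRYBG1 (0.96), ELF3 (0.93), CLDN4 (0.64), the secreted protease KLK6 (0.57), the heparan sulfate proteoglycan SDC4 (0.38), the quinone reductase NQO1 (0.35) and the kinase anchor AKAP12 (0.22). Lower were the cofactor VGLL3 (-4.09), the matrix peroxidase PXDN (-3.05), the axon guidance cue SEMA3A (-2.57), the growth factor FGF9 (-1.12), the cell cycle kinase CDK6 (-0.84), ACP2 (-0.83), GARIN5A (-0.78), SAMD5 (-0.66), EFNA2, NR2F1 and JADE1 (each -0.59), HMGA2 (-0.53), MSX1 (-0.36), RFLNB (-0.33) and NAP1L1 (-0.28).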
